A study of Homo sapiens with 8 samples.

Results

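The expression of 8 genes of the FAS death receptor pathway was examined in hIECs. These were the receptor FAS, the adaptor FADD, the inhibitor CFLAR, the initiator caspases CASP8, CASP9 and CASP10, the executioner caspase CASP6, and the caspase inhibitor XIAP. They were taken by their gene symbols. Each symbol had 1 row in every file, so the 8 genes stand against 60558 genes measured in all, of which 21400 were above 0 in at least 1 library. RNA-seq covered 4 groups with 2 libraries each. The hIECs are labelled as intestinal epithelial cells and were grown as a flat culture from human embryonic stem cells of the established line H9. Normal hIECs received neither cytokines nor PM10, and normal hIECs with PM10 received 100 μg/ml of PM10, airborne particles used as a fine dust exposure, for 7 days. Inflamed hIECs were exposed for 10 days to the cytokines IFNγ and TNFα, each at 50 ng/ml, and inflamed hIECs with PM10 received the same cytokines and PM10 at 100 μg/ml for the last 7 of the 10 days. The doses come from the study's methods, while the sample labels write 10 days as the treatment of every group. All hIECs came from the same cell line, and no source used here says that the 2 libraries of a group came from separate cultures, so p-values measure only the spread between these libraries, which may be technical.

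FAS is a cell surface receptor of the tumor necrosis factor receptor family. When FAS ligand binds, the death domain of FAS recruits FADD, and FADD recruits procaspase-8 and procaspase-10 into the death-inducing signaling complex, where they become active and go on to cleave executioner caspases such as caspase-6. CFLAR encodes cFLIP, a relative of caspase-8 without protease activity that can enter the complex and limit caspase activation. Caspase-9 is started by a separate route, in which cytochrome c from mitochondria and APAF1 form the apoptosome, and XIAP binds and inhibits caspase-9 and executioner caspases. In the intestine, IFNγ and TNFα are known as cytokines that sensitise epithelial cells to death receptor signals.

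Values are FPKM, in which fragments are counted per kilobase and scaled by library size, so that levels can be compared between genes. The lowest value above 0 lay between 0.164 and 0.228 FPKM in the 8 libraries. Read as a mean depth of 1 over a transcript, it makes 1 FPKM worth a mean depth between 4.38 and 6.11. A gene listed at 0 is then put under a depth of 1. This reading was not checked against read counts, and all depths below rest on it. The share of summed FPKM from mitochondrial DNA genes was 24.2% in normal replicate 2 and 15.5% to 20.4% in the other 7 libraries. Differences are given on the scale of log2(FPKM + 1), which makes changes at low levels look smaller. A gene passed the test when its p-value from limma, adjusted by the Benjamini-Hochberg method over 14206 tested genes, was under 0.05. Testing required 1 FPKM or more in 2 or more libraries, which 7 of the 8 genes reached and CASP10 did not. Whole cultures were sequenced, so fewer cells of a kind and less RNA per cell cannot be told apart in any value below. The values count transcripts of a whole gene, so the long and short forms of cFLIP, or membrane-bound and soluble FAS, were not separated.

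The labels were checked against genes that respond to IFNγ and TNFα. All 10 genes of this list were higher in inflamed than in normal hIECs by limma with adjusted p-values under 0.05. CXCL10, a chemokine induced by IFNγ, had a mean of 1.502 FPKM in normal and 1299.0 FPKM in inflamed hIECs. IDO1, an enzyme that breaks down tryptophan, went from 0.0921 to 126.9 FPKM, and ICAM1, an adhesion molecule, from 2.107 to 77.76 FPKM. The labelled cell type had less support. Of 12 genes that mark intestinal epithelium, CDX2, LYZ, MUC2, CHGA, VIL1, KRT20 and FABP1 were listed at 0 in all 8 libraries, and CDH1 was listed at 0 in 7. Only LGR5, SOX9 and KLF5 reached the FPKM minimum. The 12 genes together summed to 19.88 and 17.59 FPKM in normal hIECs, 19.45 and 18.75 with PM10, 10.85 and 10.83 in inflamed hIECs, and 14.17 and 13.62 in inflamed hIECs with PM10, and SOX9 was the most abundant with a mean of 8.924 FPKM. By contrast, all 11 mesenchymal markers were tested and summed to between 3698.0 and 4431.0 FPKM, led by VIM with a mean of 859.1 FPKM. Neuronal markers summed to 247.7 and 234.4 FPKM in normal hIECs, 262.9 and 269.7 with PM10, 150.9 and 153.7 in inflamed hIECs, and 172.0 and 166.6 in inflamed hIECs with PM10. Their most abundant gene was STMN2, with a mean of 91.51 FPKM, while ELAVL3 and ELAVL4 were at 0. Among 10 immune markers CD3E, CD4, CD8A, CD14 and ITGAM were at 0 in all libraries. The immune list summed to between 35.17 and 67.63 FPKM, of which NCAM1, also a neuronal gene, was the largest part with a mean of 52.3 FPKM. Endothelial markers summed to at most 0.4857 FPKM, with PECAM1, CDH5, KDR and VWF at 0. Of 4 pluripotency genes POU5F1, NANOG and LIN28A were at 0, while DPPA4 had between 7.72 and 10.03 FPKM in the 8 libraries. The sums of the epithelial, neuronal and immune lists were lower in all 4 libraries with cytokines than in the 4 without. The mesenchymal markers were divided, 4 higher and 5 lower of 11 with cytokines and without PM10, such as LUM (difference 1.31, adjusted p = 6.17e-07 in limma) and PDGFRA (-0.69, adjusted p = 6.48e-05). Single markers did not all follow their sum. With cytokines and without PM10, SOX9 fell from a mean of 14.25 to 3.918 FPKM, while LGR5 rose from 2.323 to 5.471 FPKM (adjusted p = 0.00013 in limma) and KLF5 did not pass, and the neuronal marker SYT1 rose from 2.673 to 5.068 FPKM (adjusted p = 0.00012). The part of these markers in the results below was not tested.

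FAS, CFLAR and CASP8 rose with the cytokines, CASP9 fell, and FADD, CASP6 and XIAP did not pass the test. This was the result in inflamed against normal hIECs without PM10, where 4 of the 7 tested genes passed, 3 higher and 1 lower. Among all 14206 tested genes 56.2% passed in the same comparison, so the share of the 7 is close to the background. The differences of FAS, CFLAR and CASP8 were all above 1 on the log2 scale. How many of all tested genes had a difference above 1 was not counted, so nothing is read from this. The median difference was 0.124 over the 7 genes and -0.028 over all tested genes.

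**Figure D1:**
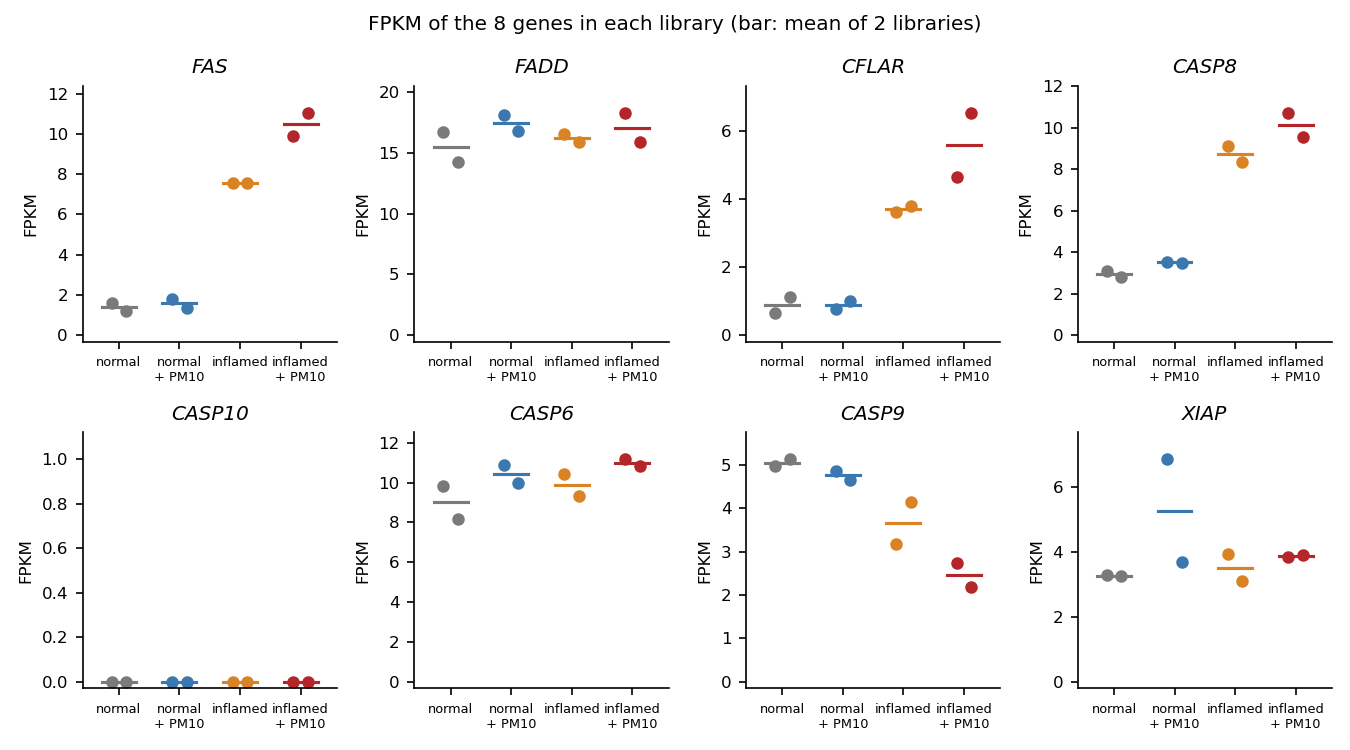
FPKM of each of the 8 genes (vertical axes, each starting near 0 and with its own scale) in the 4 groups (horizontal axes). Each point is a library and each bar the mean of the 2 libraries of a group. FAS, CFLAR and CASP8 sit higher in all 4 libraries with cytokines than in the 4 without, CASP9 sits lower, and CASP10 is at 0 throughout.

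FAS (ENSG00000026103, chromosome 10, 88953813 to 89029605, plus strand of GRCh38) encodes the death receptor. It was measured at 1.594 and 1.186 FPKM in the normal libraries, 1.809 and 1.363 in the normal libraries with PM10, 7.587 and 7.564 in the inflamed libraries, and 9.901 and 11.06 in the inflamed libraries with PM10. The 4 libraries with cytokines were all above the 4 without, and within the cytokine-treated libraries those with PM10 were above those without. The group means were 1.39 ± 0.289, 1.586 ± 0.315, 7.575 ± 0.0164 and 10.48 ± 0.819 FPKM (SD, n = 2 each), a 5.45-fold ratio of inflamed to normal hIECs. In limma the difference was 1.85 (SE 0.12, adjusted p = 1.28e-05) without PM10 and 2.15 (SE 0.12, adjusted p = 4.23e-06) with PM10. In the normal libraries FAS had a mean depth of 5.54 to 9.75, against 33.2 to 35.9 in the inflamed libraries. Its untreated level therefore rests on fewer fragments than its level with cytokines.

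Reads without strand information cannot separate FAS from genes that overlap it. ACTA2, the smooth muscle actin gene on the opposite strand, shares 387 bases of exon with FAS, of which 0 belong to the canonical FAS transcript. ACTA2 was far more abundant, at 719.2 and 656.0 FPKM in normal hIECs, 531.7 and 537.0 with PM10, 1011.0 and 1020.0 in inflamed hIECs, and 1042.0 and 1048.0 in inflamed hIECs with PM10. ACTA2 therefore also rose with the cytokines, by 0.56 in limma (adjusted p = 8.91e-05). Its mean level differed between inflamed hIECs with and without PM10 by only 0.04 (adjusted p = 0.628), and its part in the FAS values was not tested. STAMBPL1, on the same strand, shares 166 bases. It had 3.28 and 3.169 FPKM in normal hIECs and 3.452 and 3.158 with PM10. In inflamed hIECs it had 4.937 and 5.345 FPKM, and with PM10 4.964 and 4.733. STAMBPL1 was thus also higher in every library with cytokines than in those without, and its part in the FAS values was not tested. The lncRNA ENSG00000286116, on the opposite strand, shares 1899 exon bases with FAS, of which 109 belong to the canonical transcript. It was listed at 0 in all 4 libraries without cytokines and had 0.4505 and 0.4393 FPKM in inflamed hIECs and 0.2678 and 0.289 with PM10, and its part in the FAS values was not tested.

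CASP8 (ENSG00000064012, chromosome 2, 201233443 to 201361836, plus strand) encodes the initiator caspase of the FAS complex. Its values were 3.069 and 2.793 FPKM in normal hIECs, 3.533 and 3.476 with PM10, 9.102 and 8.344 in inflamed hIECs, and 10.72 and 9.546 in inflamed hIECs with PM10. Again all 4 libraries with cytokines were above all 4 without, and the 2 libraries of a group were close to each other. The mean went from 2.931 ± 0.196 to 8.723 ± 0.536 FPKM (SD, n = 2 each) with cytokines alone, a 2.98-fold ratio. The limma difference was 1.31 (SE 0.08, adjusted p = 1.1e-05) without PM10 and 1.30 (SE 0.08, adjusted p = 7.56e-06) with it.

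CFLAR (ENSG00000003402, chromosome 2, 201116154 to 201176687, plus strand) encodes cFLIP, the inhibitor in the same complex. It was the weakest of the 7 detected genes in normal hIECs, at 0.661 and 1.126 FPKM, and had 0.7557 and 1.008 FPKM with PM10. In inflamed hIECs it had 3.612 and 3.798 FPKM, and in inflamed hIECs with PM10 4.66 and 6.535 FPKM. The groups with and without cytokines did not overlap, but the 2 libraries of inflamed hIECs with PM10 lay further apart than those of any other group. The ratio of the mean in inflamed to normal hIECs was 4.15, and the limma difference was 1.32 (SE 0.17, adjusted p = 0.000409) without PM10 and 1.80 (SE 0.17, adjusted p = 6.35e-05) with PM10. The mean depth over CFLAR was 3.49 to 5.26 in the 4 libraries without cytokines.

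CFLAR, CASP10 and CASP8 lie in this order on the same strand of chromosome 2, with 6184 bases between CFLAR and CASP10 and 4014 bases between CASP10 and CASP8. CASP10 (ENSG00000003400, chromosome 2, 201182872 to 201229428), the close relative of CASP8 that also binds FADD, was listed at 0 in all 8 libraries. Both of its neighbours rose with the cytokines, while CASP10 stayed at 0 in every library. On the reading above this is a mean depth under 1, and absence of CASP10 cannot be told apart from a level below that depth.

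The windows of 250 bases before the annotated starts were searched for letters bound by the factors that IFNγ and TNFα activate, since FAS, CFLAR and CASP8 moved together. RefSeq (GRCh38.p14) gave 17 windows for 7 of the 8 genes. The motifs were GAS (TTCNNNGAA), an IFNγ response site, the core of the IRF site (GAAANNGAA) and the NF-kB consensus, each on both strands. They were found in 6.56%, 6.87% and 5.2% of 34943 such windows of all genes. Among the 17 windows GAS was found in 1, the IRF core in 1 and NF-kB in 2. All 4 matches belonged to FAS, CFLAR or CASP8, which hold 10 of the 17 windows and had prompted the search. These counts are small and were not tested against the shares of all windows, so nothing is read from where the matches fall. No window of FADD, CASP6, CASP9 or XIAP held these letters, nor did the windows before the canonical starts of FAS and CASP8. This says only that these letters are not in those windows. For CFLAR the starts searched lay 2552 to 24111 bases past the canonical start, so the bases before its canonical start were not searched. The FAS match stands 157 bases before a start 633 bases past the canonical start, and the NF-kB match of CFLAR 97 bases before a start 2552 bases past the canonical start. The matches in FAS (chr10:88991264-88991293) and CFLAR (chr2:201118609-201118638) are shown with the bases around them, and the NF-kB letters are in capitals.
FAS: ggtcgctggaGGGGGACCCCggttggagag
CFLAR: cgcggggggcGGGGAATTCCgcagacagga

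Whole windows are shown for the upstream start of CASP8 (chr2:201233213-201233462, plus strand, before a start at 201233463, far upstream of the canonical start at 201260536), with the GAS match in capitals 200 bases before that start, and for an internal start of CFLAR (chr2:201132531-201132780, plus strand), with the IRF core in capitals, read on the opposite strand, 111 bases before that start. Each match is a description of the sequence and not a site shown to be bound.
CASP8: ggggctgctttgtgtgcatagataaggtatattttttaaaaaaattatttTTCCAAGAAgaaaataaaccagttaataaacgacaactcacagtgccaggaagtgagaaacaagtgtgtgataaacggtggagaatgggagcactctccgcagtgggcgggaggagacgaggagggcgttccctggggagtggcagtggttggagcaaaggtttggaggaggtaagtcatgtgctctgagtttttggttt
CFLAR: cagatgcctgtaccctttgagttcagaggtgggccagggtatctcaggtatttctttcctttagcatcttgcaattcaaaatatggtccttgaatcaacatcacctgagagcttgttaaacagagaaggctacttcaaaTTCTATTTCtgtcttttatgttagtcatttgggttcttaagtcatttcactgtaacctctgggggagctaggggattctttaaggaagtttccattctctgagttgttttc

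FADD (ENSG00000168040, chromosome 11, 70203296 to 70207390, plus strand), the adaptor between FAS and caspase-8, was the most abundant of the 8 genes in every group. It had 16.74 and 14.22 FPKM in normal hIECs, 18.1 and 16.77 with PM10, 16.58 and 15.9 in inflamed hIECs, and 18.31 and 15.87 in inflamed hIECs with PM10. Libraries with and without cytokines overlapped. The limma difference with cytokines was 0.07 without PM10 (95% interval -0.15 to 0.29, adjusted p = 0.561) and -0.03 with PM10 (-0.25 to 0.19, adjusted p = 0.8), so a doubling, which would be a difference near 1, lay outside both intervals. An antisense lncRNA, ENSG00000254721, shares 59.2% of the exon bases of FADD and was listed at no more than 1.371 FPKM. Since strand was not recorded, reads of the 2 genes cannot be told apart.

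CASP6 (ENSG00000138794, chromosome 4, 109688622 to 109703583, minus strand) encodes an executioner caspase that cleaves lamins. Its values were 9.851 and 8.171 FPKM in normal hIECs, 10.87 and 9.985 with PM10, 10.43 and 9.347 in inflamed hIECs, and 11.18 and 10.82 in inflamed hIECs with PM10. Inflamed hIECs overlapped the normal group, while both groups with PM10 lay above it. The limma difference with cytokines was 0.12 without PM10 (95% interval -0.10 to 0.35, adjusted p = 0.295) and 0.07 with PM10 (-0.15 to 0.29, adjusted p = 0.528). CASP6 shares 98 exon bases with MCUB on the other strand, which had 2.393 and 2.53 FPKM in normal and 6.256 and 6.874 FPKM in inflamed hIECs.

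CASP9 (ENSG00000132906, chromosome 1, 15490832 to 15526534, minus strand), the initiator caspase of the apoptosome, was the gene of the 7 that fell. It had 4.984 and 5.137 FPKM in normal hIECs, 4.873 and 4.65 with PM10, 3.188 and 4.155 in inflamed hIECs, and 2.733 and 2.194 in inflamed hIECs with PM10. All 4 libraries with cytokines were below all 4 without, and the 2 with cytokines and PM10 were lowest. The difference with cytokines was -0.38 (SE 0.12, adjusted p = 0.0251 in limma) without PM10 and -0.74 (SE 0.12, adjusted p = 0.000998) with PM10. The first of these calls was lost without normal replicate 1 (-0.40, adjusted p = 0.069), without normal replicate 2 (-0.36, adjusted p = 0.0944) and without inflamed replicate 1 (-0.23, adjusted p = 0.146).

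XIAP (ENSG00000101966, chromosome X, 123859712 to 123913972, plus strand), an inhibitor of caspase-9 and executioner caspases, had 3.269 and 3.243 FPKM in normal hIECs, 6.848 and 3.689 with PM10, 3.923 and 3.099 in inflamed hIECs, and 3.835 and 3.91 in inflamed hIECs with PM10. The first library of normal hIECs with PM10 stood above the other 7, and no group was set apart from all the others. The cytokine difference was 0.08 (95% interval -0.42 to 0.58, adjusted p = 0.778 in limma) without PM10, and -0.32 (-0.82 to 0.19, adjusted p = 0.228) with PM10. Without normal PM10 replicate 2 the second of these values became -0.69 (adjusted p = 0.00421), and without normal PM10 replicate 1 it became 0.06, so that 1 library decides it.

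With PM10 in both arms, the cytokines gave the same picture over the 7 genes. FAS, CFLAR and CASP8 rose, CASP9 fell, and 3 genes did not pass, against a background of 65.4% of all tested genes. The median difference was 0.071 over the 7 genes and -0.109 over all tested genes. Inflamed hIECs with PM10 against untreated normal hIECs added CASP6, so that 5 of 7 passed, 4 higher and 1 lower, against 66.3% of all tested genes. CASP6 was higher by 0.27 (adjusted p = 0.0383 in limma), a call that was lost without normal replicate 2 (0.14, adjusted p = 0.187), either library of normal hIECs with PM10 (adjusted p = 0.0513 and 0.0512) or either library of inflamed hIECs with PM10 (adjusted p = 0.141 and 0.0934). FAS differed by 2.27, CFLAR by 1.80, CASP8 by 1.5 and CASP9 by -0.81 in this comparison. These comparisons share libraries with each other and are not separate tests of the same change. Taking the 4 libraries with cytokines against the 4 without, the values of FAS, CFLAR and CASP8 lay higher and those of CASP9 lower with no overlap, against 57.5% of all tested genes whose values did not overlap in either direction.

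**Figure D2:**
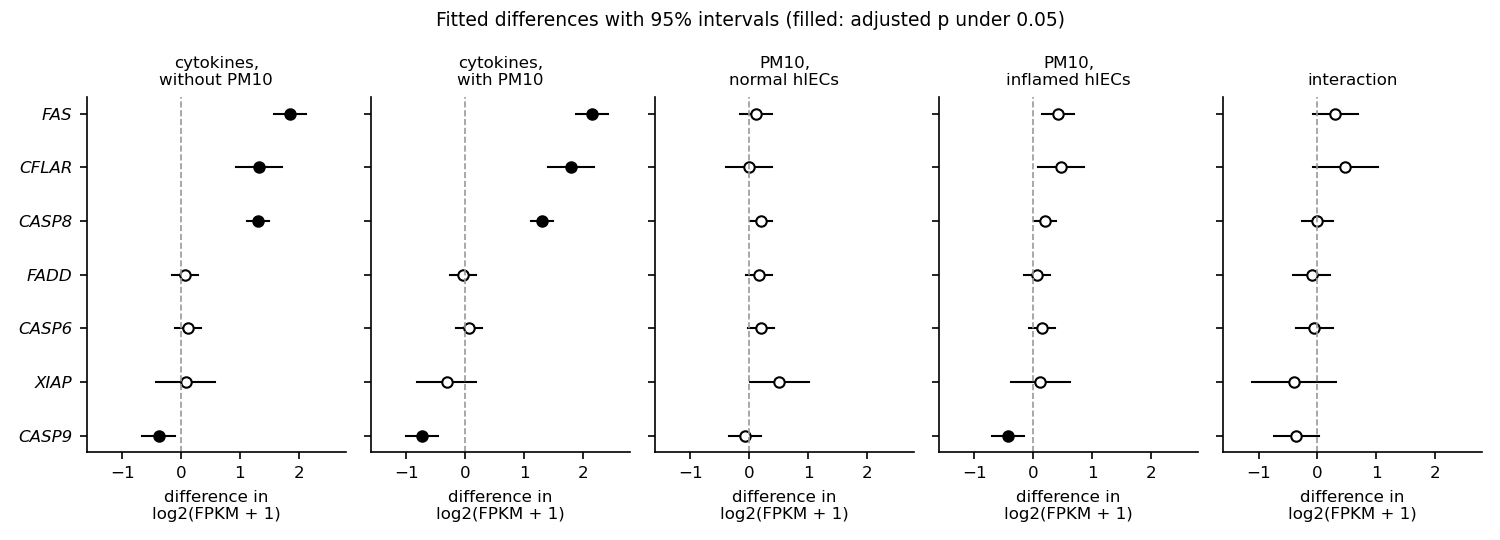
Differences in log2(FPKM + 1) (horizontal axes) of the 7 tested genes (vertical axis) in 4 comparisons and in the interaction of PM10 and cytokines. Points are limma estimates, lines are 95% intervals, and filled points have an adjusted p-value under 0.05. FAS, CFLAR and CASP8 lie right of 1 in both cytokine comparisons, while no point is filled for PM10 in normal hIECs or for the interaction.

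Cytokines changed the order of the 8 levels. In normal hIECs the order by mean FPKM was FADD (15.48), CASP6 (9.011), CASP9 (5.061), XIAP (3.256), CASP8 (2.931), FAS (1.39), CFLAR (0.8934) and CASP10 (0), and no neighbours in this order had overlapping values. In inflamed hIECs it was FADD (16.24), CASP6 (9.888), CASP8 (8.723), FAS (7.575), CFLAR (3.705), CASP9 (3.671), XIAP (3.511) and CASP10 (0), where CFLAR, CASP9 and XIAP overlapped. In normal hIECs with PM10, XIAP (5.269) stood before CASP9 (4.761) with overlapping values, and the other genes kept the order of normal hIECs. In inflamed hIECs with PM10, the values of FAS (10.48) overlapped those of CASP6 above it and of CASP8 (10.13) below it, while CASP6 and CASP8 did not overlap, and CASP9 (2.463) was the lowest of the detected genes. FAS and CASP8 were thus in the lower part of the order without cytokines and next to CASP6 with cytokines and PM10, and CASP9 was lower in the order with cytokines than without.

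Ratios of FPKM were taken within each library for 3 pairs of the genes. They are ratios of RNA and follow from the levels already given. FAS over FADD was between 0.0813 and 0.1 in the 4 libraries without cytokines and 0.458, 0.476, 0.541 and 0.697 in those with. CASP8 over CASP9 was 0.616 and 0.544 in normal hIECs, 0.725 and 0.748 with PM10, 2.86 and 2.01 in inflamed hIECs, and 3.92 and 4.35 in inflamed hIECs with PM10. For both ratios, every library with cytokines was above all 4 without. The ratio of the inhibitor to its caspase, CFLAR over CASP8, moved less. It was 0.215 and 0.403 in normal hIECs, 0.214 and 0.29 with PM10, 0.397 and 0.455 in inflamed hIECs, and 0.435 and 0.685 in inflamed hIECs with PM10. The second normal library was above the first inflamed library, so the groups overlapped for CFLAR over CASP8. No test was run on these ratios, and they are given as a description.

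**Figure D3:**
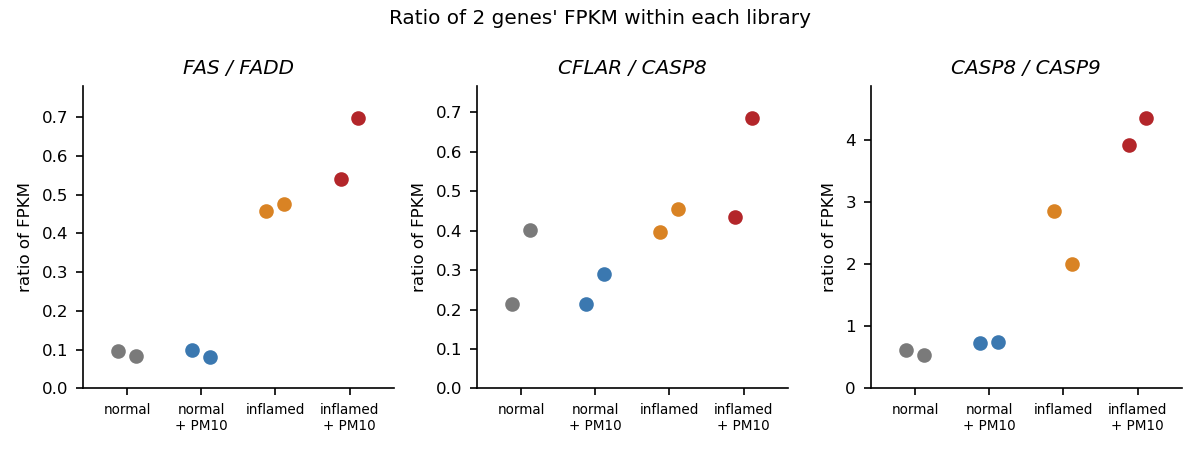
Ratio of FPKM (vertical axes, starting at 0) of FAS to FADD, CFLAR to CASP8 and CASP8 to CASP9 in each of the 8 libraries, by group (horizontal axes). Each point is a library. FAS over FADD and CASP8 over CASP9 do not overlap between libraries with and without cytokines, and CFLAR over CASP8 does.

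PM10 alone did not bring any of the 7 genes past the test in normal hIECs, where 9.23% of all tested genes passed. In limma CASP8 had a difference of 0.20 (adjusted p = 0.152) and XIAP one of 0.51 (adjusted p = 0.164). Values with and without PM10 did not overlap for 5 of the 7 genes, higher with PM10 for FADD, CASP6, CASP8 and XIAP and lower for CASP9, but the same held for 56.5% of all tested genes, so nothing is read from it. The XIAP difference rests on the library of 6.848 FPKM, normal PM10 replicate 1. This difference was 0.14 without that library and 0.88 without normal PM10 replicate 2, which had 3.689 FPKM. The 95% intervals were -0.16 to 0.39 for FAS, -0.39 to 0.39 for CFLAR, -0.06 to 0.39 for FADD, -0.03 to 0.42 for CASP6 and -0.35 to 0.20 for CASP9. The median was 0.165 over the 7 genes and 0.059 over all tested genes.

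In inflamed hIECs 1 of the 7 genes passed with PM10, against 15.2% of all tested genes. That share moved with single libraries, from 4.75% without inflamed replicate 1 to 21.1% without normal replicate 1. The gene that passed was CASP9, lower by 0.43 on the log2 scale (difference -0.43, SE 0.12, adjusted p = 0.0487 in limma), from a mean of 3.671 to 2.463 FPKM. The call was close to the threshold and was lost when any library other than inflamed replicate 1 was left out, with adjusted p-values of 0.0613 and 0.0614 without a normal library, 0.0798 and 0.0799 without a library of normal hIECs with PM10, 0.21 without inflamed replicate 2, and 0.0757 and 0.222 without a library of inflamed hIECs with PM10. FAS was 1.38-fold higher by mean FPKM with PM10, a difference of 0.42 (95% interval 0.15 to 0.69) that just missed the threshold (adjusted p = 0.0513), and it passed without either normal library (adjusted p = 0.0363 and 0.0361) but not without any of the other 6 libraries (adjusted p = 0.0539 to 0.226). CFLAR was 1.51-fold higher, a difference of 0.47 (0.08 to 0.86, adjusted p = 0.0971), and CASP8 1.16-fold higher, a difference of 0.19 (0.01 to 0.38, adjusted p = 0.141). Values with and without PM10 did not overlap for 5 of the 7 genes, higher for FAS, CFLAR, CASP6 and CASP8 and lower for CASP9, against 65.1% of all tested genes, a share near enough that nothing is read from it. FADD, CASP6 and XIAP had intervals of -0.16 to 0.29, -0.08 to 0.36 and -0.39 to 0.62. The summed mesenchymal markers moved with PM10 as well, from 4393.0 and 4431.0 FPKM in inflamed hIECs to 3738.0 and 3698.0 with PM10, and from 4204.0 and 4240.0 to 3742.0 and 3745.0 FPKM in normal hIECs. Of the 11 markers, 8 were lower and 1 higher in inflamed hIECs, the higher one being LUM (97.6 to 139.9 FPKM, adjusted p = 0.000897), and 2 were lower and 2 higher in normal hIECs. Other markers also moved with PM10 in inflamed hIECs. The neuronal sum was higher in both libraries with PM10, where STMN2 rose (adjusted p = 0.0163) and SNAP25 fell (adjusted p = 0.0137). The epithelial sum was higher in both libraries with PM10, where LGR5 rose (adjusted p = 0.0172), and both tested immune markers rose, CD68 from 0.366 to 1.472 FPKM (adjusted p = 0.021) and NCAM1 from 36.03 to 46.49 FPKM (adjusted p = 0.0116). The part of these markers in the PM10 results was not tested.

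Whether PM10 acted differently in inflamed and normal hIECs was tested as the interaction of PM10 and cytokines. None of the 7 genes passed in limma, against 6.6% of all tested genes, a share that moved when single libraries were left out. The largest values were 0.47 for CFLAR (95% interval -0.08 to 1.03, adjusted p = 0.278), -0.39 for XIAP (-1.10 to 0.32, adjusted p = 0.483), -0.36 for CASP9 (-0.74 to 0.03, adjusted p = 0.247) and 0.31 for FAS (-0.08 to 0.69, adjusted p = 0.311). The value for CASP8 was -0.00 (-0.27 to 0.26, adjusted p = 0.991). So CASP9 passed with PM10 in inflamed and not in normal hIECs, but the difference between these effects did not pass.

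Other genes of the pathway were read from 6 lists of 56 genes, of which 49 were tested. With cytokines and without PM10, 30 were higher and 7 lower, which is 75.5% against 56.2% of all tested genes, and their median difference was 0.436 against -0.028. Of the 30 higher genes, 8 reached the FPKM minimum only through libraries with cytokines, so that they entered the count through the change itself. In this split, made after the data were seen, the other 41 tested genes held 22 higher and 7 lower, 70.7% against 55.8% of all genes that reached the minimum without cytokines. The 8 genes were the ligand TNFSF15, the receptors and decoys TNFRSF6B, TNFRSF10A and TNFRSF10C, and TRAF1, MLKL, XAF1 and BIRC3. The cytokine counts of the single lists below are small and still hold these 8 genes. They stand against the same 56.2% of all tested genes, and nothing is read from the count of a single list. With PM10 as the treatment, 4 were higher and 5 lower in normal hIECs, 18.4% against 9.23% of all tested genes, and 7 higher and 3 lower in inflamed hIECs, 20.4% against 15.2%. These counts moved with single libraries, since with a library left out the sum of both directions ranged from 1 to 14 in normal and from 3 to 11 in inflamed hIECs, against 33 to 40 for the cytokines. Among the PM10 differences named below, that of TNFRSF11B in inflamed hIECs passed with every library left out, and each other was lost without at least 1 library.

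**Figure D4:**
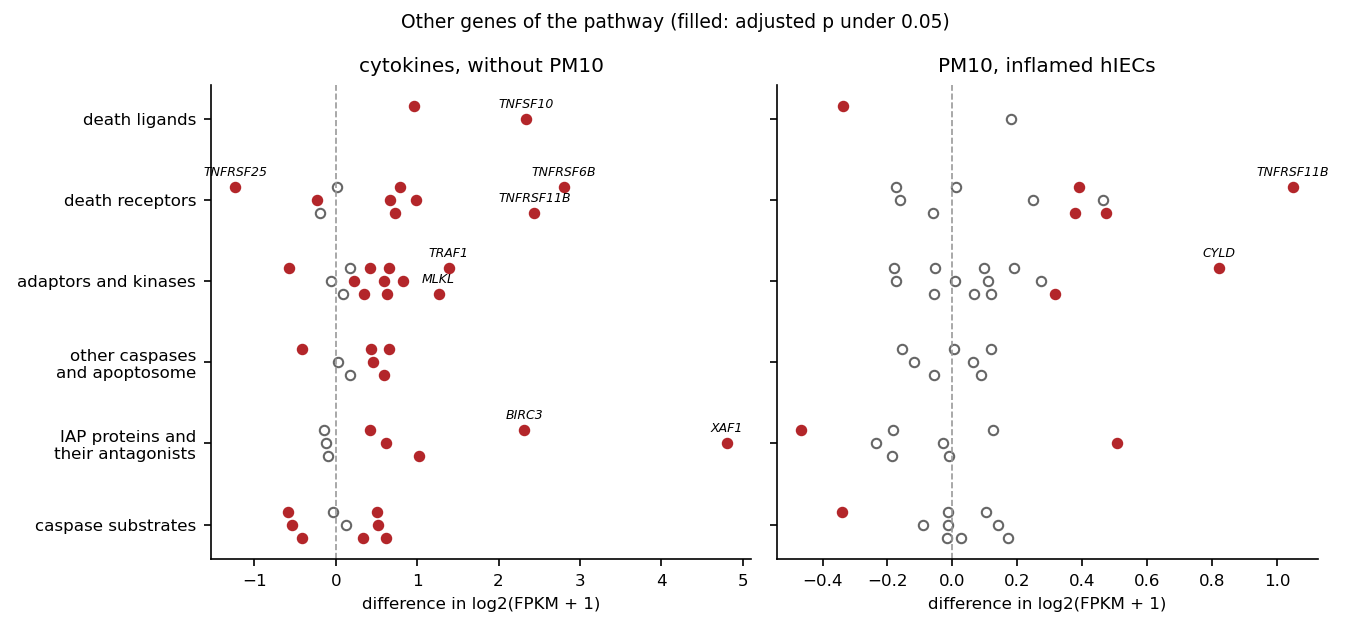
Differences in log2(FPKM + 1) (horizontal axes) of the tested genes in 6 lists of the pathway (vertical axis), with cytokines in hIECs without PM10 on the left and with PM10 in inflamed hIECs on the right. Each point is a gene, filled where the adjusted p-value from limma was under 0.05, and the vertical position within a list carries no value. Most points of the left panel lie right of 0, while on the right the filled points are few. XAF1 and BIRC3 were listed at 0 without cytokines, so their positions on the left depend on the added 1.

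Among death ligands, FASLG, the ligand of FAS, and TNF, LTA and LTB were listed at 0 in all 8 libraries. TNFSF10, which encodes TRAIL, had 2.524 and 2.805 FPKM in normal hIECs, 1.309 and 1.58 with PM10, 18.4 and 16.69 in inflamed hIECs, and 13.9 and 13.41 in inflamed hIECs with PM10. It therefore rose with cytokines by 2.34 (adjusted p = 7.38e-07 in limma) and fell with PM10, by 0.59 in normal (adjusted p = 0.00964) and by 0.34 in inflamed hIECs (adjusted p = 0.0366). TNFSF15, a ligand of the receptor TNFRSF25, rose with cytokines from a mean of 0.5537 to 2.03 FPKM (difference 0.97, adjusted p = 0.000158).

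All 10 death receptors and decoys other than FAS were tested, and with cytokines 6 were higher and 2 lower. TNFRSF6B, a soluble decoy that binds FAS ligand, went from a mean of 0.1902 to 7.516 FPKM (difference 2.81, adjusted p = 0.000113 in limma). TNFRSF11B, osteoprotegerin, a decoy that can bind TRAIL, had 3.104 and 2.255 FPKM in normal hIECs, 1.733 and 1.306 with PM10, 19.45 and 18.26 in inflamed hIECs, and 40.12 and 40.01 in inflamed hIECs with PM10. Its differences were 2.44 with cytokines (adjusted p = 4.08e-06), -0.54 with PM10 in normal (adjusted p = 0.0388) and 1.05 with PM10 in inflamed hIECs (adjusted p = 0.00241). TNFRSF10A, a TRAIL receptor, was higher by 0.99 (adjusted p = 0.001) with cytokines, and TNFRSF25, the receptor also known as DR3, was lower (difference -1.23, adjusted p = 0.000297). With PM10 in inflamed hIECs, 4 of the 10 receptors were higher and 6 did not pass, against 15.2% of all tested genes that passed in either direction. Beside TNFRSF11B, the TRAIL receptor TNFRSF10B rose by 0.39 (46.37 to 60.97 FPKM), the decoy TNFRSF10C by 0.47 (1.177 to 2.023 FPKM) and the decoy TNFRSF10D by 0.38 (12.12 to 16.04 FPKM), with adjusted p-values of 0.0152, 0.0145 and 0.0114, while TNFRSF10A had a difference of 0.47 (adjusted p = 0.0748). TNFRSF1A, the main TNF receptor, was higher with PM10 in normal hIECs by 0.31 (adjusted p = 0.0157), from 49.01 to 60.99 FPKM.

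Of the adaptors and kinases, 13 of 14 were tested, and with cytokines 9 were higher and 1 lower. TRAF1, an adaptor of TNF receptors, went from a mean of 0.2852 to 2.367 FPKM (difference 1.39, adjusted p = 6.25e-05 in limma), and MLKL, the effector of necroptosis, from 0.5723 to 2.774 FPKM (1.26, adjusted p = 1.46e-05). TRAF2, the partner of TRAF1, went from 6.1 to 11.57 FPKM (0.82, adjusted p = 4.38e-05), and PEA15, a death effector domain protein that binds FADD and caspase-8, from 65.05 to 103.2 FPKM (0.66, adjusted p = 4.54e-05). With PM10, RIPK1, a kinase of the TNF receptor complex, was higher in normal hIECs by 0.32 (adjusted p = 0.0271). CYLD, a deubiquitinase that acts on RIPK1, was higher in inflamed hIECs by 0.82 (adjusted p = 0.0122), and so was PEA15, by 0.32 (adjusted p = 0.0103).

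The other cell death caspases and apoptosome genes numbered 7, all tested, with 4 higher and 1 lower with cytokines. BID, the caspase-8 substrate that links the receptor route to mitochondria, went from a mean of 3.605 to 5.919 FPKM (difference 0.59, adjusted p = 0.000794 in limma). APAF1 and CYCS, the partners of caspase-9 in the apoptosome, were higher by 0.46 (adjusted p = 0.00454) and 0.44 (adjusted p = 0.00199), in the direction opposite to CASP9. None of the 7 passed with PM10 in either normal or inflamed hIECs.

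IAP proteins, the family of XIAP, and their antagonists were tested for 8 of 10 genes, and 5 were higher and 0 lower with cytokines, a share near the 56.2% of all tested genes. XAF1, an antagonist of XIAP, was listed at 0 in all 4 libraries without cytokines and had 22.87 and 31.8 FPKM in inflamed hIECs and 22.71 and 22.82 with PM10 (adjusted p = 2.27e-07 in limma for inflamed against normal). BIRC3, encoding cIAP2, was also listed at 0 without cytokines and had 4.052 and 3.921 FPKM in inflamed hIECs and 5.984 and 6.202 with PM10 (adjusted p = 5.48e-07 for inflamed against normal and 0.00709 for PM10 in inflamed hIECs). No fold change is given for either, because the groups without cytokines were at 0. BIRC5, survivin, a gene of dividing cells, rose by 1.02 (adjusted p = 0.000115) with cytokines and fell by 0.56 with PM10 in normal hIECs (adjusted p = 0.0201). SEPTIN4, whose ARTS form antagonises XIAP, rose by 0.62 (adjusted p = 0.000275) with cytokines, and fell by 0.31 with PM10 in normal hIECs (adjusted p = 0.0435) and by 0.47 in inflamed hIECs (adjusted p = 0.00747).

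The 9 caspase substrates were divided, with 4 higher and 3 lower with cytokines. ROCK1, a kinase cleaved during membrane blebbing, was higher by 0.62 (adjusted p = 0.000786 in limma), and DFFA, the inhibitor of the caspase-activated DNase, by 0.51 (adjusted p = 0.00158). DFFB, that DNase, was lower (difference -0.54, adjusted p = 0.00277), as was GSN, gelsolin, which cuts actin filaments (-0.58, adjusted p = 3.52e-05). With PM10, LMNB1, a lamin, fell by 0.24 in normal (adjusted p = 0.0345) and by 0.34 in inflamed hIECs (adjusted p = 0.0072). ACIN1, a chromatin condensation factor, and SPTAN1, a spectrin, were higher with PM10 in normal hIECs by 0.28 (adjusted p = 0.0145) and 0.21 (adjusted p = 0.0437).

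FAS, CFLAR and CASP8 were each compared with all other tested genes to find the closest patterns over the 8 libraries, using the root mean square difference of log2(FPKM + 1) after centring each gene on its mean. For FAS, whose own group means span 2.27, the closest were DDX60L (0.084), SLC39A14 (0.105) and DCBLD2 (0.109). DDX60L had group means of 2.304, 2.642, 11.07 and 13.51 FPKM in the order normal, normal with PM10, inflamed, and inflamed with PM10. For CASP8, with a span of 1.5, they were SLC41A2 (0.048), MVP (0.055) and AC008875.3 (0.066), and SLC41A2 had means of 2.661, 3.25, 8.485 and 9.856 FPKM. For CFLAR, with a span of 1.8, the closest were SOCS1 (0.142), LUM (0.165) and BANK1 (0.167), less close than the neighbours of CASP8. SOCS1, a feedback inhibitor of IFNγ signaling, had means of 1.765, 1.852, 6.631 and 7.787 FPKM. Likeness was measured over 8 libraries that share 4 treatments and is given as a description.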

How the data were processed

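RNA-seq of 8 hIEC libraries was analysed. The authors selected poly-A RNA, kept no strand information, trimmed reads with Cutadapt and Sickle, mapped them to GRCh38 with HISAT2 and quantified genes with StringTie. They deposited FPKM values of every gene for each library, and no other scaling is described. The annotation release was not given in the sources used here. Of the deposited identifiers, 99.5% matched GENCODE 44, which gave positions and overlaps. No 2 libraries held identical values. FPKM keeps no read counts, so depth is only inferred from the lowest values, and no interval for counting error is given.

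A linear model with 4 group means was fitted to log2(FPKM + 1) of all 8 libraries with limma 3.58.1 (R 4.3.3), letting the variance follow the mean. It covered the 14206 genes that reached 1 FPKM in 2 or more libraries. Comparisons numbered 6, each adjusted over all tested genes by the Benjamini-Hochberg method. The steps were tested on simulated data. Genes named are the 8 genes, every death ligand, in each other list up to 4 genes with the largest change with cytokines among those that passed with a mean of at least 1 FPKM, and every listed gene that passed with PM10. Marker values and the genes overlapping the 8 fall outside this rule and were chosen after their values were seen. The 8 genes, the lists and the motifs were chosen with earlier results of these data known. SEPTIN4 appeared in the files under a symbol altered to a date and was matched by its identifier. Alternatives covered the pseudocount (0.1 and 0.5), the filter on low values, scaling between libraries, the settings of limma, the replicate number as a block, and leaving out each library in turn. Promoter windows came from RefSeq. Protein sequences were not used here, and some listed genes are not reported here. Python 3.11.15, pandas 2.3.3 and matplotlib 3.10.9 made tables and plots.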

Additional observations from a re-analysis of the deposited data

Results flagged for a closer look

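None of the 7 tested genes had an effect of PM10 that differed between inflamed and normal hIECs past the threshold. Among the other genes of the pathway 5 of 49 did (10.2%, against 6.6% of all tested genes), by the interaction term in limma on log2(FPKM + 1). TNFRSF11B fell with PM10 in normal and rose in inflamed hIECs, with an interaction of 1.59 (adjusted p = 0.00386). CYLD rose in inflamed hIECs, with group means of 4.828, 4.316, 7.92 and 14.82 FPKM in the order normal, normal with PM10, inflamed, and inflamed with PM10 (interaction 0.95, adjusted p = 0.0412). BIRC3 was listed at 0 in both groups of normal hIECs, so that its interaction of 0.51 (adjusted p = 0.0399) is its difference within inflamed hIECs. No effect of PM10 could be measured at 0 in normal hIECs, but the count of 5 still holds BIRC3. Nothing is read from that count. TNFRSF1A was at 49.01, 60.99, 49.67 and 47.56 FPKM in the same order of groups (interaction -0.37, adjusted p = 0.0298). ACIN1 was at 51.15, 62.54, 38.18 and 37.85 FPKM (interaction -0.30, adjusted p = 0.0412). With each library left out in turn, the interaction of TNFRSF11B passed in 8 of 8 fits, those of TNFRSF1A and ACIN1 in 2, and those of CYLD and BIRC3 in 1. Groups of 2 libraries were too small for a check for outlying libraries.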

How the results depend on the processing

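The cytokine differences of FAS, CFLAR and CASP8 kept their direction and passed under every alternative in which they were tested. With a mean of at least 5 FPKM as the filter, only 4 of the 8 genes were tested, and 2 passed with cytokines without PM10, 2 with cytokines in hIECs with PM10 and 3 with both against untreated. With PM10 in inflamed hIECs the count of 1 became 0 with a pseudocount of 0.1, no filter, quantile normalization, rescaling without mitochondrial DNA genes, or no trend, and 2 (FAS and CASP9) with median centring or robust moderation. Over all alternatives that kept every library, CASP9 there passed in 3 of 10 (adjusted p = 0.0437 to 0.136 in limma) and FAS in 4 of 11 (0.0374 to 0.115). A count that stayed at 1 was therefore not always CASP9, and the cause was not tested. With each library left out in turn, the counts ranged from 0 to 1 for PM10 in normal hIECs, 3 to 4 for cytokines without PM10, 0 to 1 for PM10 in inflamed hIECs, 4 to 5 for cytokines with PM10, 4 to 5 for both against untreated, and 0 throughout for the interaction.

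None of the differences that changed sign had passed with all libraries. That of XIAP with cytokines and PM10 (-0.32) passed without normal PM10 replicate 2 (-0.69, adjusted p = 0.00421). For CFLAR with PM10 in normal hIECs the values were 0.012 (pseudocount 0.1), 0.0022 (pseudocount 0.5) and 0.033 (without mitochondrial DNA genes). For FADD with cytokines and PM10 they were 0.021 (median centring) and 0.017 (quantile normalization), for the interaction of CASP8 0.044 and 0.034 under the same alternatives, and for that of CASP6 0.015 (quantile normalization). With each library left out, values of both signs were found for PM10 in normal hIECs for FAS (-0.011 to 0.24) and CFLAR (-0.18 to 0.18), for cytokines without PM10 for XIAP (-0.054 to 0.21) and FADD (-0.041 to 0.18), for PM10 in inflamed hIECs for XIAP (-0.015 to 0.25) and FADD (-0.031 to 0.16), for cytokines with PM10 for XIAP (-0.69 to 0.055) and FADD (-0.13 to 0.068), and for the interaction for CASP8 (-0.079 to 0.073), FADD (-0.21 to 0.012) and CASP6 (-0.17 to 0.068). A group left with 1 library was assumed to vary like the others.

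The labels number the libraries 1 and 2 in every group. Deviations of same-numbered libraries correlated at -0.002 to 0.079 over 14206 genes. A low correlation cannot show whether same-numbered libraries were handled together, and the main fit did not pair them. With the replicate number as a block, 4, 4 and 5 of the 7 genes passed with cytokines without PM10, with PM10 and with both, 0 with PM10 in normal hIECs and 1 with PM10 in inflamed hIECs. That 1 was CFLAR (adjusted p = 0.0365) and not CASP9 (adjusted p = 0.0693). The named genes of the pathway lists and the label check were put through the same alternatives after the data were seen. All 26 calls with cytokines without PM10 passed in each of them, as against 0 of 9 with PM10 in normal hIECs, 1 of 10 with PM10 in inflamed hIECs and 1 of 5 interactions. The 9 calls of pathway genes with PM10 in normal hIECs became 5 with no trend and 0 when the fit held just those 2 groups, and the 37 with cytokines became 23 of 33 tested genes (69.7%, against 61.2% of all genes) with a mean of at least 5 FPKM. Calls over all genes with PM10 in normal hIECs depended most on the fit, 1311 in all, 23 in the same fit of 2 groups, and 194 to 2627 with a library left out.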
